A study of Mus musculus with 4 samples.

Results

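The nebulin gene (Neb) gave 225 circular RNAs in differentiated C2C12 cells, out of 69136 listed in all libraries, and most of their reads came from a single short intron. The members were taken by position: every circle on the minus strand of mouse chromosome 2 (mm9) that lay between 51985000 and 52195000, a window that holds the gene. They comprised 19 of 4074 exonic circles and 206 of 65062 intronic circles, and the outermost bases were 52006057 and 52175258. The files pair no gene symbol with a transcript, so the name rests on position. The circles were assigned to the transcript model ENSMUST00000036934 in 3 libraries and to a model named as predicted in RPAD library 2. The short model ENSMUST00000028320 held 2 further intronic circles.

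C2C12 is an established mouse myoblast line whose cells fuse into myotubes when serum is withdrawn. All cells had been kept for 3 to 4 days in medium with 2% horse serum, and carried no other labelled treatment. RPAD RNA (2 libraries) had been digested with RNase R for 30 min, polyadenylated and cleared of poly(A)+ RNA, which removes linear RNA, and total RNA (2 libraries) had not. Nothing in the labels ties the libraries to separate cultures, so the p-values speak only of the spread among these 4 libraries, and part or all of that may be technical. The labels' protocol names HeLa RNA in the digestion while all 4 libraries are labelled C2C12, and the labelled line was used. Markers of myoblasts and myotubes could not be checked, because the files list only circles.

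Nebulin is a giant protein of the skeletal muscle sarcomere that runs along the actin thin filament from the Z-disc and takes part in setting the length of that filament. It is built from many similar actin-binding modules, grouped in the middle of the protein into super-repeats that resemble each other, and its gene is switched on as myoblasts differentiate. Exonic circles form when the end of an exon is back-spliced to the start of the same or an earlier exon. Intronic circles are generally described as what remains of a spliced-out intron lariat. In these lists they begin at the 5' splice site and nearly all are read up to an end inside the intron. Reads, throughout, are those that cross the junction closing a circle.

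RPAD libraries 1 and 2 held 150478 and 191246 such reads over all genes, and total RNA libraries 1 and 2 held 38850 and 35981. The RPAD libraries listed 15460 and 26403 circles and the total RNA libraries 18809 and 16477. These totals are not sequencing depth, so each share or fold is relative to other circles. Over the 924 circles tested below, the log2 levels of RPAD 1 and RPAD 2 had a Pearson r of 0.014 and those of total RNA 1 and total RNA 2 an r of 0.40; circles are not independent replicates. The intervals given for shares are exact Clopper-Pearson 95% intervals and cover counting error only, since PCR copies were not marked.

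Neb reads were spread unequally over the 2 kinds of circle. Intronic circles of the locus had 1800 and 1641 reads in RPAD and 200 and 155 in total RNA. Exonic circles had 18 and 10 reads in RPAD and 36 and 10 in total RNA. Intronic circles thus held 99.0% (98.4 to 99.4) and 99.4% (98.9 to 99.7) of Neb reads in RPAD and 84.7% (79.5 to 89.1) and 93.9% (89.1 to 97.1) in total RNA. Over all other genes the intronic share was 62.4% and 51.6% in RPAD and 58.2% and 57.1% in total RNA. Of the Neb intronic reads, 1766 and 1252 in RPAD and 159 and 132 in total RNA lay in intron 105. The high Neb share thus rested largely on a single intron, and in RPAD 2 also on intron 20, with 389 reads. The difference in the Neb intronic share was 9.86 percentage points between group means, 99.2% ± 0.272 in RPAD and 89.3% ± 6.50 in total RNA (SD, n = 2 each; exact two-sided permutation p = 0.333, the smallest that 2 against 2 libraries allow). Without total RNA library 1 it was 5.26 points. Counting only circles with at least 5 reads in a library, the groups overlapped, at 99.0% and 99.4% in RPAD and 70% and 100% in total RNA.

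As a share of the library, Neb intronic reads stood higher and Neb exonic reads lower in both RPAD libraries than in both total RNA libraries. Neb made up 1.90% (1.82 to 1.99) and 1.65% (1.57 to 1.73) of intronic reads in RPAD and 0.882% (0.765 to 1.01) and 0.753% (0.639 to 0.881) in total RNA. The means were 1.78% ± 0.179 in RPAD and 0.818% ± 0.0915 in total RNA (SD, n = 2 each; exact permutation p = 0.333). Neb made up 0.0322% (0.0191 to 0.0508) and 0.0109% (0.00522 to 0.0200) of exonic reads in RPAD and 0.223% (0.156 to 0.308) and 0.0650% (0.0312 to 0.119) in total RNA. The means were 0.0215% ± 0.0150 in RPAD and 0.144% ± 0.111 in total RNA (SD, n = 2 each; exact permutation p = 0.333). For exonic reads the group means differed by -0.122 points with all libraries and by -0.0434 points without total RNA library 1. The groups did not overlap in either share, while the intervals of RPAD 1 and total RNA 2 did for exonic reads. The order of intronic shares turned round when only circles with at least 5 reads in a library were counted, at 2.34% and 2.45% in RPAD and 2.85% and 4.60% in total RNA.

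**Figure D1:**
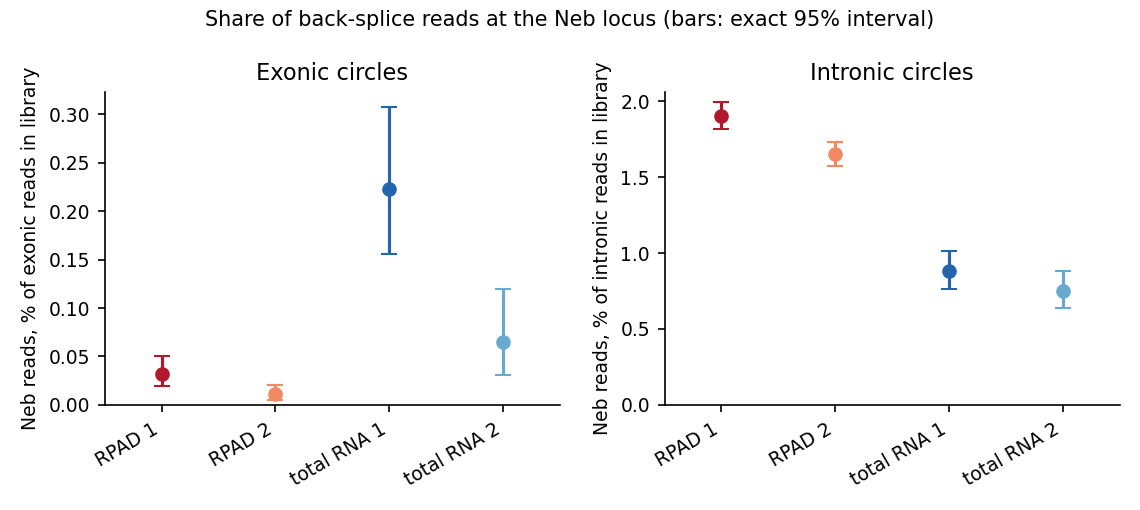
Share of the exonic (left) and intronic (right) back-splice reads of each library that lay on Neb circles, in percent, with exact 95% intervals. On the right the RPAD libraries sit at 1.90% and 1.65%, above the total RNA libraries at 0.882% and 0.753%; on the left they sit at 0.0322% and 0.0109%, below the total RNA libraries at 0.223% and 0.0650%.

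The abundance test made no call for Neb. Reads were summed per host gene (transcript models that share a junction or intron). They were fitted with edgeR's quasi-likelihood test over all host genes that passed a low-count filter, with Benjamini-Hochberg adjustment and a threshold of 0.05. Of the host genes tested, 26.4% had an unadjusted p under 0.05 (edgeR), or 26.0% of tested host genes split by kind of circle. For all Neb circles together, 1818 and 1651 reads in RPAD and 236 and 165 in total RNA, the log2 fold change was 0.68 (SE 0.62; edgeR, Benjamini-Hochberg adjusted p = 0.760). Split by kind of circle, it was 0.58 (SE 0.71; edgeR, adjusted p = 0.864) for intronic and -3.39 (SE 2.16; edgeR, adjusted p = 0.536) for exonic circles. The edgeR test called 0 of 1424 host genes (0%), with 376 at an unadjusted p under 0.05, and 0 of 1437 host genes split by kind (0%), with 374 at that level. DESeq2 called 106 and 117 of these, Neb not among them. Without RPAD 1 edgeR called 526 host genes and without RPAD 2 it called 557, again without Neb. The median log2 fold change over the 1437 features was -1.01 with the main scaling and -0.61 with DESeq2 size factors, and the Neb values moved with it to 0.98 for intronic and -2.96 for exonic circles.

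Exonic Neb circles were few and low. RPAD listed 1 and 2 of them and total RNA 14 and 5. Exonic circles of all genes were also fewer in RPAD, at 499 and 777, against 2067 and 1821 in total RNA, so Neb made up 0.200% and 0.257% of them in RPAD and 0.677% and 0.275% in total RNA. The means were 1.5 ± 0.707 in RPAD and 9.5 ± 6.36 in total RNA (SD, n = 2 each; exact permutation p = 0.333). At an equal total of 35981 back-splice reads the expected numbers were 0.993 and 1.03 in RPAD and 13.3 and 5.0 in total RNA. Of the 19, 16 were listed in 1 library, 3 in 2 and 0 in more. Of all 4074 exonic circles 3296 were likewise listed in 1 library, 80.9% against 84.2% for Neb. Between the groups, 2 Neb circles were listed in RPAD only, 16 in total RNA only and 1 in both, beside 705 in RPAD only, 2919 in total RNA only and 450 in both over the whole series. A total of 9 rested on 1 read in all, so at this depth a difference between libraries was not detectable for them. Group means differed by -8.0 circles, a value that was -3.5 without total RNA library 1 and -12.5 without total RNA library 2. Counting only circles with at least 5 reads in a library, the groups overlapped, with 1 and 1 in RPAD and 3 and 0 in total RNA.

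The exonic circle with the highest mean share of Neb exonic reads was exon 107 alone, 105 nt at 52056918 to 52057022. It had 18 and 0 reads in RPAD and 0 and 0 in total RNA, and was the only exonic Neb circle of RPAD 1. Next came exon 15 alone, 108 nt at 52164005 to 52164112, with 0 and 9 reads in RPAD and 1 and 0 in total RNA. The RPAD libraries thus rested on different circles. The remaining exonic circle of RPAD 2, exon 10 alone (105 nt, 52175154 to 52175258), had 1 read.

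In total RNA most exonic reads lay in 3 stretches of the gene, exons 10 to 23, 57 to 67 and 146 to 151. Near the start, exons 15 to 21 (52159550 to 52164112) had 0 and 0 reads in RPAD and 0 and 3 in total RNA, and exons 17 to 23 (52159151 to 52163304) had 0 and 0 in RPAD and 1 and 2 in total RNA. Both circles join 7 exons into 741 nt, or 247 codons, and overlap in exons 17 to 21. Exon 16 alone (105 nt, 52163796 to 52163900) had 0 and 0 reads in RPAD and 0 and 2 in total RNA.

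In the middle of the gene, 3 circles of 4 exons each measured 729 nt, or 243 codons. Exons 58 to 61 (52112101 to 52113811) had 0 and 0 reads in RPAD and 8 and 0 in total RNA. Exons 57 to 60 (52113082 to 52114424) had 0 and 0 in RPAD and 4 and 0 in total RNA. Exons 64 to 67 (52102280 to 52107334) had 0 and 0 in RPAD and 2 and 2 in total RNA, and was the only one of the 3 read in both total RNA libraries. All 3 are made of 1 exon each of 105, 108, 204 and 312 nt, entered at a different exon of that cycle. These exons belong to the super-repeats, whose copies resemble each other. Whether reads from similar copies were exchanged at these junctions was not tested.

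Toward the end of the gene, exons of 93 nt formed 4 nested or overlapping circles, all read in total RNA library 1. Exons 146 to 148 (279 nt, 52008576 to 52013444) had 0 and 0 reads in RPAD and 8 and 0 in total RNA. Exons 147 to 151 (465 nt, 52006057 to 52012903) had 0 and 0 in RPAD and 5 and 0 in total RNA. Exons 146 to 149 and exons 146 to 147 had 1 read each, in total RNA 1. The 3 circles that begin at exon 146 share the upstream intron of 1552 nt. The C-terminal end of nebulin is anchored in the Z-disc. The 6 remaining exonic circles had 1 read each, exon 111 in total RNA 2 and exons 12, 63, 93 to 95, 95 and 96 in total RNA 1.

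Every exon in an exonic Neb circle had a length divisible by 3. The 19 circles used 33 different exons of 8 sizes, of which 10 measured 105 nt, 8 measured 108 nt, 6 measured 93 nt and 4 measured 312 nt. All 19 circles therefore hold a whole number of codons. At the titin locus, the host gene with the most exonic circles, 75 of 78 circles (96.2%) had a length divisible by 3, and of the 4055 exonic circles outside Neb, titin included, 40.6% did. Neb circles were also short, 105 to 741 nt with a median of 186 nt, against a median of 1214 nt for titin and 513 nt for the rest of the series. Single exons made up 9 of the 19 Neb circles (47.4%), against 6.41% at titin and 23.5% in the rest. These are descriptions of lists of very different size and no test was made.

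**Figure D2:**
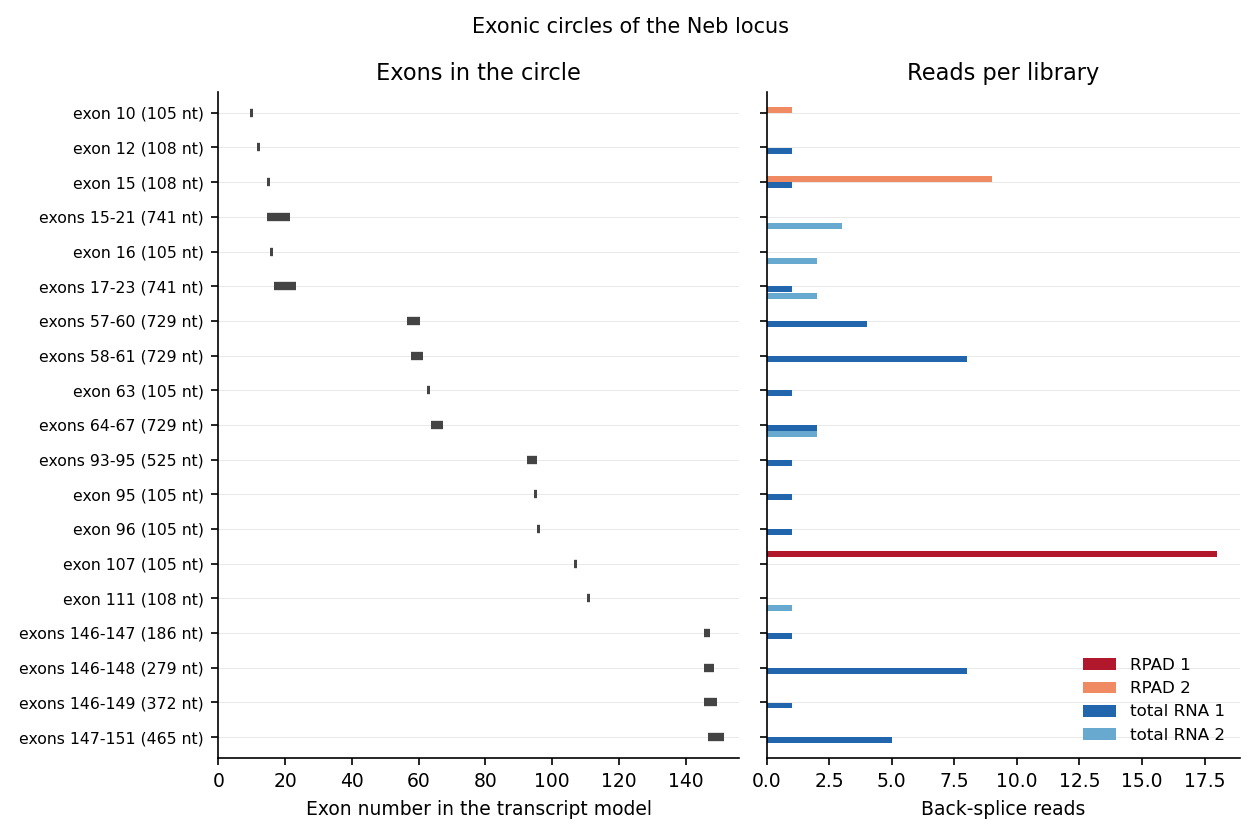
Exonic circles of the Neb locus: exons joined in each circle by exon number in the transcript model (left) and back-splice reads in each library (right). RPAD 1 and RPAD 2 each rest on a single-exon circle, exon 107 with 18 reads and exon 15 with 9 reads, while the multi-exon circles were read in total RNA, at most 8 reads each.

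Intronic Neb circles came from 20 introns, 3 and 2 of them in the RPAD libraries and 12 and 9 in the total RNA libraries. Over all genes, too, fewer introns were listed in RPAD, and Neb held 0.230% and 0.120% of them in RPAD and 0.296% and 0.277% in total RNA. Intron 105 held most reads everywhere. It is an annotated intron of 497 nt, from 52057532 to 52058028. It had 1766 and 1252 reads in RPAD and 159 and 132 in total RNA. That was 98.1% and 76.3% of Neb intronic reads in RPAD and 79.5% and 85.2% in total RNA, ranges that overlap.

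Intron 105 was among the most-read introns of every library. By reads it ranked 4 of 1304 and 6 of 1672 introns in RPAD, and 5 of 4050 and 5 of 3246 in total RNA. Its share of all intronic reads was 1.87% (1.78 to 1.96) and 1.26% (1.19 to 1.33) in RPAD and 0.701% (0.597 to 0.819) and 0.641% (0.537 to 0.760) in total RNA, without overlap between groups. The means were 1.56% ± 0.430 in RPAD and 0.671% ± 0.0426 in total RNA (SD, n = 2 each; exact permutation p = 0.333). A median listed intron had 19 and 14 reads in RPAD and 2 and 3 in total RNA. Of 7859 introns with a circle, 126 (1.60%) had circles in all 4 libraries, and intron 105 was the only Neb intron among them.

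The fit over introns did not call intron 105. Its log2 fold change was 0.38 (SE 1.39; edgeR, Benjamini-Hochberg adjusted p = 0.999), against a median of -0.94 over the 1026 introns tested. Leaving out RPAD 1 or RPAD 2 gave 0.25 or 0.63, and leaving out total RNA 1 or total RNA 2 gave 0.53 or 0.24. It was 0.58 with DESeq2 size factors and 0.85 with library totals alone, while the median over all introns moved to -0.77 and -0.51. The edgeR test called 0 of 1026 introns (0%), with 293 (28.6%) at an unadjusted p under 0.05, 7 of them higher and 286 lower in RPAD. DESeq2 called 132, and no Neb intron. Without RPAD 1 edgeR called 272 introns and without RPAD 2 it called 363, again none from Neb. Of the 20 Neb introns, 2 passed the low-count filter and 18 were not tested. The filter works on counts scaled to library totals, so fewer reads sufficed in the smaller total RNA libraries. The median and the number lower in RPAD depend on it. With at least 10 reads in 2 libraries required, the median was -0.58, with 73 introns lower and 11 higher at that unadjusted level (edgeR).

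The other Neb intron tested was intron 72, 1028 nt from 52092684 to 52093711. It had 0 and 0 reads in RPAD and 8 and 3 in total RNA, and its adjusted p was 0.118 (edgeR, Benjamini-Hochberg). Its unadjusted p was 0.0289 (edgeR), a level that 28.6% of all tested introns reached. Intron 72 passed the low-count filter through total RNA alone. The direction of its fold change was thereby fixed, and its test cannot serve as evidence of a difference. The limit set for a share at 0 reads, 3 reads of a library's intronic total (counting error only), was 0.00317% and 0.00302% in the RPAD libraries, and the share was 0.0353% and 0.0146% in total RNA.

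The other introns were read in 1 library or at a few reads. Intron 20 (962 nt, 52159652 to 52160613) had 0 and 389 reads in RPAD, on 77 circles, and 0 and 0 in total RNA. It lies inside the circles of exons 15 to 21 and 17 to 23, and RPAD 2 is also the library annotated with the predicted model. The same intron exists in ENSMUST00000036934, where exon 20 starts at 52160614 and exon 21 ends at 52159651. Why it was listed in RPAD 2 alone was not tested. Those 389 reads were 0.391% (0.354 to 0.432) of the intronic reads of RPAD 2, while the same limit of 3 reads stood at 0.00317% in RPAD 1 and 0.0132% and 0.0146% in total RNA. Intron 110 (1397 nt, 52051920 to 52053316) had 33 and 0 reads in RPAD and 0 and 0 in total RNA. Intron 20 and intron 110 were each listed in a different RPAD library and were absent from the lists of the other 3. A median listed intron of RPAD 1 had 19 reads, so intron 110 with 33 did not stand out there.

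Intron 146 (448 nt, 52012904 to 52013351) had no read in either RPAD library and 4 in each total RNA library. It lies between exons 146 and 147, inside the 3 circles that begin at exon 146. Intron 32 (1259 nt, 52146874 to 52148132) was read in total RNA 2 alone, with 9 reads, and intron 120 (811 nt, 52044308 to 52045118) in total RNA 1 alone, with 6. The 13 introns not yet named had between 1 and 4 reads in all. Of the 20 introns, 6 flank or lie inside an exonic circle, and intron 105 is not among them. The circle of exon 107 begins 509 nt downstream of its end, beyond exon 106 (198 nt) and intron 106 (311 nt).

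**Figure D3:**
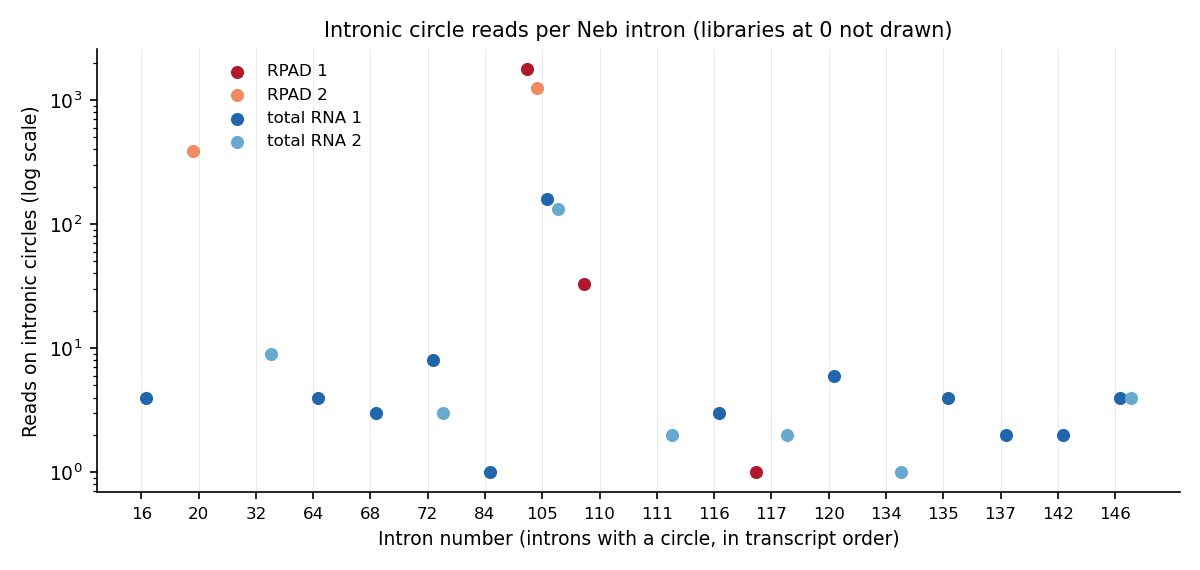
Reads on intronic circles (log scale) for 18 Neb introns, coloured by library. Numbers follow ENSMUST00000036934, except that of intron 20, which was taken from the predicted model. Libraries with 0 reads are not drawn, and 2 introns of the short transcript model with 1 read each are left out. Intron 105 is the only one with a point from every library, at 1766 and 1252 reads in RPAD and 159 and 132 in total RNA, and intron 20 has 389 reads in RPAD 2 alone.

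Outside intron 105, Neb intronic reads made up 0.0360% and 0.391% of intronic reads in RPAD and 0.181% and 0.112% in total RNA. The means were 0.214% ± 0.251 in RPAD and 0.146% ± 0.0489 in total RNA (SD, n = 2 each; exact permutation p = 1). The RPAD libraries lay on either side of total RNA, and in the higher one, RPAD 2, all these reads lay in intron 20.

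RPAD listed 75 and 143 intronic Neb circles and total RNA 90 and 59, so the groups overlapped. That was 0.501% and 0.558% of the 14961 and 25626 intronic circles of all genes in RPAD and 0.538% and 0.403% of the 16742 and 14656 in total RNA, and RPAD 2 listed the most in both counts. The means were 109 ± 48.1 in RPAD and 74.5 ± 21.9 in total RNA (SD, n = 2 each; exact permutation p = 0.667). Group means differed by 34.5 circles, a value that was 0.5 without RPAD 2 and 68.5 without RPAD 1. At an equal total of 35981 reads the expected numbers were 63.5 and 100 in RPAD and 86.9 and 59.0 in total RNA. All 77 circles of intron 20 and all 10 of intron 110 carry a score of 1 in the files, and all 68 of intron 105 carry a score of 0; what the score means was not stated in the labels or headers. With a score of 0 required, 64 and 66 intronic Neb circles remained in RPAD and 82 and 57 in total RNA, and the difference turned to -4.5.

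The intronic Neb circles listed in every library all lay in intron 105. Of the 206, 142 (68.9%) were listed in 1 library and 39 (18.9%) in all 4, and all 39 came from intron 105. Over the whole series 91.2% of 65062 intronic circles were listed in 1 library and 0.258% in all 4. In intron 105, RPAD 1 and 2 shared 62 circles, 96.9% and 93.9% of their lists, and total RNA 1 and 2 shared 39, 68.4% and 92.9% of theirs. Both RPAD libraries listed all 42 circles of total RNA 2. Only 68 circles were listed in this intron, and RPAD 1 and 2 held 64 and 66 of them. These 2 lists could not share fewer than 62, so their overlap does not show that ends recur. Total RNA 1 and 2 held 57 and 42 of the same 68. Most of their overlap, and most of the 39 circles in all 4 libraries, was therefore also forced by the sizes of the lists. The 18.9% beside 0.258% thus does not show that particular ends recur either.

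The circles of intron 105 differ from each other only in where they end. All start at base 52058028, the 5' splice site, and across the 4 libraries every length from 100 to 167 nt was listed, 68 lengths in all. RPAD listed 64 and 66 of these and total RNA 57 and 42. Nearly all reads fell in the shorter part of that range, with 99.2% and 98.9% in RPAD and 99.4% and 100% in total RNA at 160 nt or less. No single end dominated: the most-read length held 5.27% and 5.51% of the intron's reads in RPAD and 5.66% and 9.09% in total RNA.

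That spread of ends is common in these files. Among other introns with at least 100 reads, the shortest and longest circle spanned a median of 79.0 and 80.0 nt in RPAD (207 and 244 introns) and 116 and 92.5 nt in total RNA (8 and 10 introns), while intron 105 spanned 68 and 67 nt in RPAD and 64 and 60 nt in total RNA. Their median shortest circle was 104 and 102 nt in RPAD and 101 and 113 nt in total RNA. Circles under 100 nt held 0.160% and 0.259% of the intronic reads outside Neb in RPAD and 0.196% and 0.201% in total RNA. The lower edge of intron 105 near 100 nt thus lies where intronic circles of other genes also begin.

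The median circle of intron 105, weighted by reads, was 129 and 127 nt long in RPAD and 128 and 127 nt in total RNA. Mean lengths were 131 and 129 nt in RPAD and 129 and 128 nt in total RNA. The group means were 130 ± 1.71 nt in RPAD and 129 ± 0.543 nt in total RNA (SD, n = 2 each; exact permutation p = 0.333). The libraries thus placed the ends in the same window, 368 and 370 nt before the 3' splice site in RPAD and 369 and 370 nt in total RNA at the median. None of the 206 intronic Neb circles ended within 200 nt of its 3' splice site, and the nearest ended 206 nt from it. Among the 64856 intronic circles of other genes, 3.33% ended within 200 nt. Whether circles with such ends derive from lariats was not tested.

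Within the window, the same lengths tended to be high or low in different libraries. The 4 circles with the highest mean share of Neb intronic reads were those of 107, 117, 149 and 109 nt. The circle of 107 nt (52057922 to 52058028) had 73 and 40 reads in RPAD and 7 and 12 in total RNA. That of 117 nt (52057912 to 52058028) had 86 and 43 in RPAD and 9 and 3 in total RNA. That of 149 nt (52057880 to 52058028) had 48 and 52 in RPAD and 2 and 9 in total RNA.

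The circle of 109 nt (52057920 to 52058028) had 56 and 69 reads in RPAD and 3 and 5 in total RNA. It was the most-read length in RPAD 2, while 122 nt led in RPAD 1 (93 reads), 117 nt in total RNA 1 (9 reads) and 107 nt in total RNA 2 (12 reads). Across the 68 lengths, the share of reads correlated between the RPAD libraries at a Pearson r of 0.67 (Spearman rho 0.71) and between the total RNA libraries at 0.36 (rho 0.37). Between an RPAD and a total RNA library r was 0.39 to 0.59. All these lengths share 1 intron, and in total RNA few reads stand behind each, so the correlations are descriptions. The 39 circles listed in all 4 libraries held 76.8% and 77.2% of the intron's reads in RPAD and 72.3% and 96.2% in total RNA.

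At the short end of the window, odd lengths had more reads than even ones in every library. From 101 to 112 nt, odd lengths had 273 and 234 reads and even lengths 88 and 85 in RPAD, and odd lengths had 27 and 34 and even lengths 12 and 6 in total RNA. Odd lengths thus held 75.6% and 73.4% of reads in this stretch in RPAD and 69.2% and 85.0% in total RNA. Above 112 nt they held 49.8% and 47.9% in RPAD and 53.3% and 57.6% in total RNA. Intronic circles of other genes of 101 to 112 nt had 50.2% and 49.9% of reads at odd lengths in RPAD and 47.4% and 50.9% in total RNA. The stretch was chosen after the values were seen, and no test was made.

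**Figure D4:**
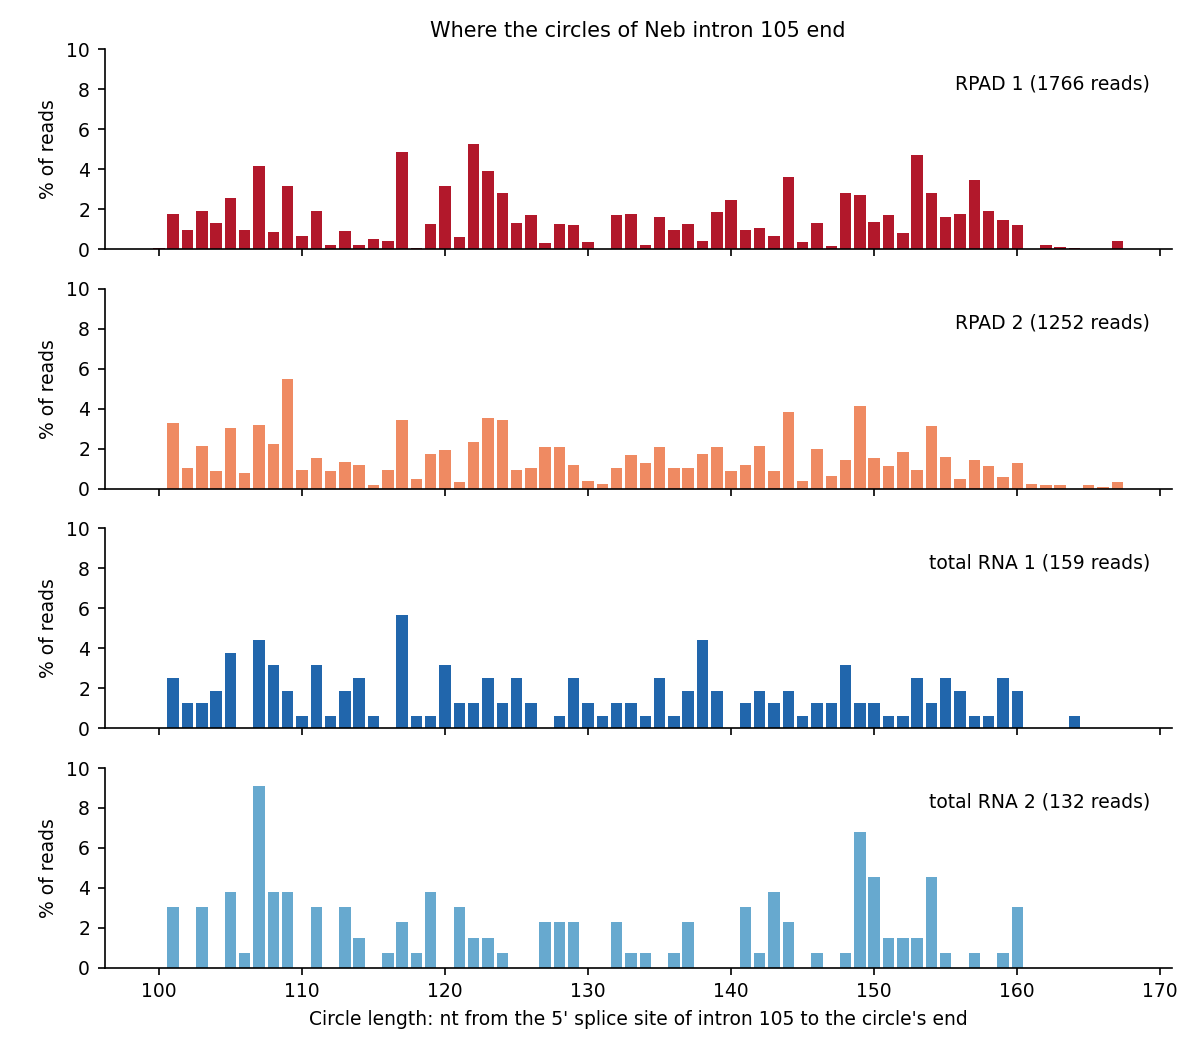
Percent of the reads of intron 105 at each circle length, from the 5' splice site to the end of the circle in nt, for RPAD 1, RPAD 2, total RNA 1 and total RNA 2 from top to bottom. Reads in all 4 libraries start at about 101 nt, lie more on odd than on even lengths up to 112 nt and mostly end by 160 nt, with no end above 9.09%.

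Circle by circle, edgeR called none of the Neb circles. Of the 225, 50 passed the low-count filter, all from intron 105, and the other 175, all exonic ones included, were not tested. The test over all circles called 0 of 924 (0%), with 162 (17.5%) at an unadjusted p under 0.05, of which 0 were Neb circles. DESeq2 called 19, none from Neb, and edgeR called 184 without RPAD 1 and 214 without RPAD 2, again none from Neb. The log2 fold changes of the 107, 117, 149 and 109 nt circles were 0.05, 0.80, 0.78 and 1.52 (edgeR, Benjamini-Hochberg adjusted p = 0.999 for each), but they moved with single libraries. Without total RNA 1 those of the 107, 117 and 149 nt circles were -0.19, 1.98 and 0.12, and without total RNA 2 they were 0.33, 0.15 and 2.03; that of the 109 nt circle ran from 1.03 to 2.08 with 1 library left out. The smallest unadjusted p among the 50 was 0.0602 (edgeR, Benjamini-Hochberg adjusted p = 0.341). Their median log2 fold change was 0.87, with 38 above and 12 below 0, against -0.15 over all tested circles, and it was 1.51 without total RNA 1 and 0.62 without total RNA 2. With DESeq2 size factors it was 1.27, with 47 above and 3 below 0, against 0.18. These circles share 1 intron and are not independent.

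The titin locus, where the other giant protein of the sarcomere is encoded, had most of its reads on exonic circles, unlike Neb. Neb listed 19 exonic and 206 intronic circles, and titin (76543468 to 76820604 on the same chromosome) 78 exonic and 610 intronic ones. Intronic circles held 99.0% and 99.4% of Neb reads and 12.8% and 11.1% of titin reads in RPAD, and 84.7% and 93.9% of Neb reads and 7.74% and 9.14% of titin reads in total RNA. The most-read intron held 98.1% and 76.3% of intronic reads at Neb and 34.0% and 50.4% at titin in RPAD, and 79.5% and 85.2% at Neb and 18.2% and 30.1% at titin in total RNA. Intronic titin reads lay in 22 and 17 introns in RPAD and 22 and 23 in total RNA. The 2 loci differ in number of exons and in reads, and the difference was not tested.

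By rank among host genes, Neb stood 4 of 1029 and 2 of 1299 in RPAD and 8 of 2959 and 6 of 2443 in total RNA for intronic reads. For exonic reads it stood 238 of 386 and 341 of 595 in RPAD and 76 of 1380 and 289 of 1251 in total RNA. The host genes closest to Neb in pattern were sought among the 74 others with at least 20 reads in every library. The measure was the root mean square difference of log2(CPM + 1), with CPM the counts scaled to the library's back-splice reads and each profile centred on its mean over the 4 libraries. The closest lay on chromosome 11 from 8378228 to 8515854 (0.16 log2 units), with 298 and 199 reads in RPAD and 31 and 22 in total RNA. Next came chromosome 2 from 76861503 to 77006567 (0.29), with 177 and 216 in RPAD and 36 and 27 in total RNA, and chromosome 7 from 29682868 to 29696508 (0.29), with 548 and 286 in RPAD and 60 and 36 in total RNA. In the chromosome 7 host gene intronic circles held 100% and 99.7% of reads in RPAD and 100% and 100% in total RNA, as high as at Neb or higher. In the chromosome 11 host gene they held 100% and 51.8% in RPAD and 90.3% and 59.1% in total RNA. In the chromosome 2 host gene they held 100% and 63.9% in RPAD and 8.33% and 40.7% in total RNA. The median distance was 1.05, and Neb had 12082 and 8633 CPM in RPAD and 6075 and 4586 CPM in total RNA.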

How the data were processed

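Circles were read in 2 RPAD and 2 total RNA libraries, grouped and numbered by their titles. Ribosomal RNA was removed and libraries were amplified with 17 PCR cycles, per the labels' protocols. The build mm9 and the tools TopHat, cutadapt and Cufflinks 2.2.1 are named, per the submitters' processing notes. The caller of back-splice junctions was not given in the sources used here. The authors deposited raw counts of back-splice reads per circle, 1 list per library, and a score per circle, per the file headers. Read counts run from 1, and a circle absent from a list was given 0.

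Transcript models sharing a junction or intron were joined into host genes, the Neb window being 1. Of 8067 transcript names 0 matched the name tables, so no list of sarcomere genes was analysed here; titin, like Neb, was named by position. Counts were tested with edgeR 4.0.16 (R 4.3.3) by quasi-likelihood F test with TMM scaling, after filterByExpr (minimum count 5, minimum total 10), with Benjamini-Hochberg adjustment. The SE is the absolute log2 fold change over the square root of F. DESeq2 1.42.0 was an alternative. Scripts were tested on simulated counts whose spread between libraries was set far below that of these data. The common dispersion, edgeR's measure of that spread, was 2.43 over host genes here. That check therefore does not show what the test can detect in these libraries. For single values per library an exact permutation test (two-sided) was run, whose p cannot go below 0.333. The named items were the 10 exonic circles, 6 introns and 4 intronic circles with the highest mean share, the circles listed in all 4 libraries, the titin locus, the 3 host genes closest in pattern, and, outside that rule and chosen after their values were seen, intron 110 and the exonic circles beyond the 10. The members and lists were chosen with earlier results of these data known. Python 3.11.15, scipy 1.17.1 and pandas 2.3.3 were used.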

Additional observations from a re-analysis of the deposited data

How the results depend on the processing

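Of 151 alternative values for 16 results, 3 turned round and 148 neither turned round nor crossed the threshold. For shares and listed circles the permutation p cannot go below 0.333, so their side of the threshold was fixed beforehand. Their mean difference within same-numbered libraries equals the main value by construction. Counts of Neb calls were 0 throughout and have no direction. The 148 is therefore not a measure of robustness. With at least 5 reads required per circle and library, the difference in the Neb share of intronic reads was -1.33 points (2.34% and 2.45% in RPAD, 2.85% and 4.60% in total RNA). With a score of 0 required, the difference in listed intronic circles was -4.5. Without total RNA replicate 1, the log2 fold change of the 107 nt circle of intron 105, 0.05 with all libraries, was -0.19, within a range of -0.19 to 0.33 over the libraries left out in turn. The cause was not tested. The filter of 5 reads also made the groups overlap in the exonic share, the intronic share of Neb reads and the exonic circles listed. With 1 library left out, log2 fold changes ran from 0.53 to 0.85 for all Neb circles, -4.01 to -2.29 for exonic and 0.46 to 0.90 for intronic ones. The share differences ran from -0.201 to -0.0434 points for exonic reads, 0.834 to 1.09 points for intronic reads and 5.26 to 14.5 points for the intronic share. Listed circles differed by -12.5 to -3.5 (exonic) and 0.5 to 68.5 (intronic). Calls of Neb circles and introns were 0 in each of these fits, which take a group's single remaining library to be as variable as the other group's. Host genes called numbered 526 without RPAD 1 and 557 without RPAD 2, circles 184 and 214 and introns 272 and 363, against 0 with all libraries; DESeq2 called 106, 19 and 132, and edgeR without the low-count filter called 2 host genes.

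With the replicate number as a block, the log2 fold change was 0.69 for all, -3.19 for exonic and 0.58 for intronic Neb circles. There were 0 Neb calls, while 2 host genes, 2 host genes split by kind of circle, 0 circles and 1 intron were called. Deviations of same-numbered libraries correlated at 0.013 over host genes and 0.046 over circles, and with 2 pairs the numbers were not taken to pair the libraries. Of the 19 exonic circles, 9 rest on 1 read in all, so depth limits what their absence from a library shows.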
